A study of Danio rerio with 6 samples.

Results

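The genes described here are 8 markers of migrating neural crest and of the pigment cells that come from it: crestin, sox10, mitfa, pmelb, dct, tyrp1b, gch2 and xdh. They were followed in RNA of whole zebrafish embryos taken 25 hours post fertilization (hpf). A probe set, the group of array probes that reads 1 transcript, was taken wherever its single annotated gene symbol was one of these names. That gave 7 of the 15617 probe sets on the array, covering 6 of the 8 genes. Crestin, sox10, mitfa, pmelb and dct had 1 probe set each and gch2 had 2. No probe set carried tyrp1b or xdh as its single symbol, so these genes were not analysed here. The genes were chosen by their known lineage with the mutant and wild-type signals of the same arrays in view, so their differences between genotypes are given as a description, with no test.

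Embryos labelled as null mutants for prdm1 (3 arrays) were compared with embryos labelled wild type (3 arrays), all at 25 hpf. The labels' protocols say that embryos were told apart by phenotype. Sorting by phenotype need not tell heterozygous siblings from wild type, so the group labelled wild type may hold both. The sources used here do not give the allele, its background or the number of embryos in each RNA sample. All RNA came from whole embryos, so fewer cells of a type cannot be told apart from less RNA per cell.

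The neural crest arises at the edge of the neural plate and leaves it to form pigment cells, peripheral neurons, glia and head cartilage. In zebrafish, Sox10 is needed for the pigment and glial lineages and turns on mitfa, which sets the melanophore (black pigment cell) fate. Mitfa in turn acts on melanin synthesis genes. Xanthophores, the yellow pigment cells, make pteridines from GTP, and iridophores deposit purines. Melanin genes are also used by the retinal pigment epithelium of the eye, which is not of crest origin. Prdm1a, a zinc finger factor that binds DNA, is known in zebrafish to act upstream of crest specifiers. The comparison asks how far these lineage markers differ when it is lost.

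The crest marker crestin, the crest regulator sox10 and the melanophore regulator mitfa were lower in all 3 mutant arrays than in any wild-type array. The melanosome matrix gene pmelb was higher in every mutant array. The melanin enzyme gene dct differed by less than the spread between arrays, and both probe sets of the pteridine gene gch2 overlapped between genotypes. Values are the authors' MAS5 signals on a linear scale, and log2 changes (log2 fold changes) are differences of mean log2 signal, mutant minus wild type, with limma standard errors (SE).

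All 7 probe sets passed the filter on low signal. Of these, 4 did not overlap between genotypes, where 27% of the 10851 probe sets tested did not (13.8% lower in the mutant and 13.2% higher). The same 4 probe sets were past an adjusted p of 0.05 in limma with Benjamini-Hochberg adjustment, 1 higher and 3 lower, where 3.39% of all probe sets tested were (1.54% higher and 1.85% lower). Since the genes were named from this contrast, nothing is read from these counts. The number past the threshold was 1, crestin alone, without mutant replicate 1, mutant replicate 2, mutant replicate 3 or wild type replicate 2.

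**Figure D1:**
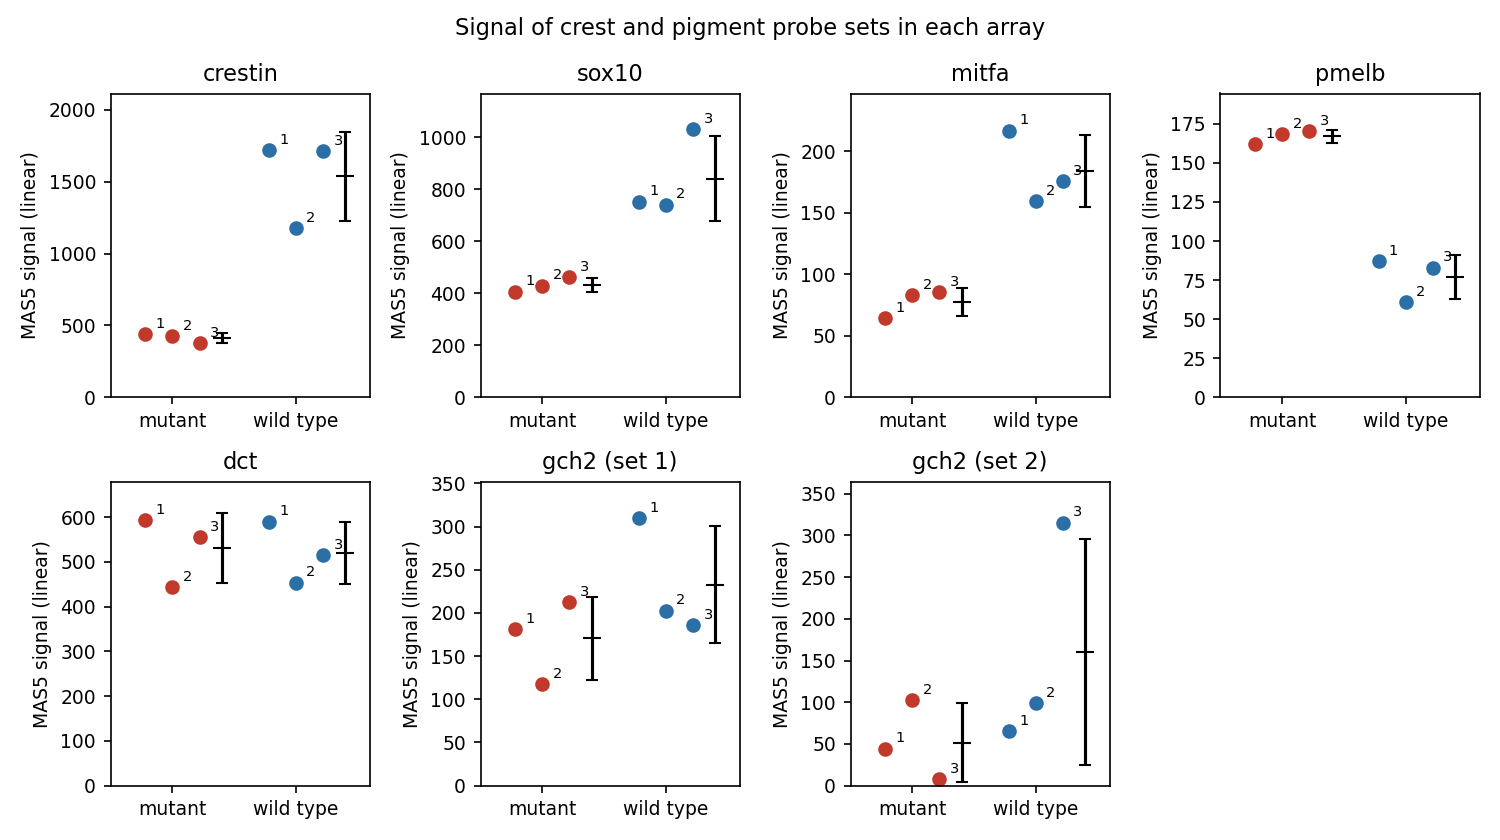
MAS5 signal (linear scale from 0, 1 panel per probe set, axes differ between panels) in the 3 mutant arrays (red, left) and the 3 wild-type arrays (blue, right). Digits are replicate numbers, and black bars give the mean and SD of each group. Crestin, sox10 and mitfa lie lower in every mutant array, pmelb lies higher, and dct and both gch2 probe sets overlap.

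Crestin marks premigratory and migrating neural crest in zebrafish and is a gene without a known counterpart in mammals. Its probe set (NCBI gene 30186) gave signals of 441.0, 423.0 and 375 in mutant replicates 1 to 3, against 1720, 1178 and 1715 in wild type replicates 1 to 3. The highest mutant array was thus well below the lowest wild-type array. The mutant mean was 413 ± 34.3 and the wild-type mean 1537 ± 311 (SD, n = 3 per genotype). The log2 change was -1.88 (SE 0.18), a level 3.68-fold lower. It was the 64th largest decrease among the probe sets tested.

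The transcription factor gene sox10 (NCBI gene 140616) gave 406, 430 and 461 in the mutant arrays, against 753, 741 and 1032 in the wild-type arrays. The mutant arrays lay close together, while wild type replicate 3 stood above the other wild-type arrays. The means were 432 ± 27.4 for mutant arrays and 842 ± 164 for wild-type arrays (SD, n = 3 per genotype), a log2 change of -0.95 (SE 0.18). Sox10 is also used in the otic vesicle, the forming inner ear, so its signal in a whole embryo need not come from crest alone. The 13 otic vesicle probe sets tested had a median change of -0.05, and none passed (0 also had an unadjusted p under 0.05 in limma, where 20.6% of all probe sets tested had one, 10.2% higher and 10.3% lower). The summed signal of the 13 otic genes overlapped between genotypes, from 7076 to 7696 over mutant arrays and from 7048 to 7762 over wild-type arrays. The gene sparc alone made up 2734 and 2483 of the mean sums of 7420 and 7379 for the mutant and the wild type.

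The gene mitfa (NCBI gene 30080), mutated in the zebrafish nacre line that lacks melanophores, gave 64.03, 83.1 and 85.1 in the mutant arrays, against 217, 160 and 176 in the wild-type arrays. Every mutant array was lower than every wild-type array, although the signal was modest. The means were 77.4 ± 11.6 for mutant arrays and 184 ± 29.5 for wild-type arrays (SD, n = 3 per genotype), a log2 change of -1.25 (SE 0.24). With an offset of 64 added before the log, which damps dim signals, the value was -0.81. Its paralogue mitfb, expressed in the retinal pigment epithelium, lay below the filter at 30.4 ± 17.4 for mutant arrays and 22.4 ± 10.04 for wild-type arrays (SD, n = 3 per genotype).

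The measured difference was not of equal size across the probe sets of these genes. Relative to the wild-type mean, crestin was at 28.7%, 27.5% and 24.4% in mutant replicates 1 to 3. Mitfa was at 34.8%, 45.2% and 46.3%, and sox10 at 48.3%, 51.0% and 54.8%. Within each array, the log2 difference of crestin and sox10 was lower by 0.93 in the mutant than in the wild type, with no overlap between genotypes. That of crestin and mitfa was lower by 0.63, again with no overlap, while that of sox10 and mitfa (0.30) overlapped. Of the 21 pairs of member probe sets, 12 did not overlap. The share over other pairs of probe sets was not computed, so nothing is read from this lack of overlap. With the gapdhs 3' to 5' signal ratio as a covariate, crestin was at -1.74 and mitfa at -1.49, which lie closer together. The order of mitfa and sox10 depended on the processing. With an offset of 64 before the log, the log2 change was -0.81 for mitfa and -0.85 for sox10.

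The 2 melanin genes measured among the members were not placed like mitfa. The gene pmelb was higher in the mutant. The gene dct differed by less than the spread between arrays, with a sign that turned under median centring (-0.01). The tyrosinase gene tyr, which is no member, was dim and overlapped, at -0.38 with a 95% interval from -1.22 to 0.46. The gene dct (NCBI gene 58074) encodes dopachrome tautomerase, a melanin synthesis enzyme that is an early melanoblast marker in zebrafish. Melanin genes are also used by the retinal pigment epithelium, so the dct signal of a whole embryo need not come from crest alone. The dct probe set gave 593, 443 and 556 in the mutant arrays, against 590.2, 453 and 515 in the wild-type arrays. The 2 ranges covered almost the same signals. The means were 531 ± 78.0 for mutant arrays and 519.7 ± 68.5 for wild-type arrays (SD, n = 3 per genotype). The log2 change was 0.03 (SE 0.18), with a 95% interval from -0.38 to 0.43, so these arrays leave room for a difference of up to about that size. Within an array, dct and mitfa moved apart by 1.28 on the log2 scale, with no overlap between genotypes. This pair is among the 12 counted above, from which nothing is read.

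The gene pmelb (NCBI gene 562810) encodes a protein of the fibrils on which melanin is laid down. In zebrafish it is known from the retinal pigment epithelium. It gave 162, 169 and 170.2 in the mutant arrays, against 87.0, 61.1 and 83.0 in the wild-type arrays. The mutant arrays were nearly equal and all above the wild type. The means were 167 ± 4.33 for mutant arrays and 77.0 ± 13.9 for wild-type arrays (SD, n = 3 per genotype), a log2 change of 1.13 (SE 0.24). With an offset of 64 before the log it was 0.72. The annotation gave this probe set no accession, and it was the only one of the 7 without one.

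Of the retinal pigment epithelium list, 8 probe sets of 8 genes were tested and none passed, with 2 (25%) at an unadjusted p under 0.05 in limma, against 20.6% of all probe sets tested. The transcription factor gene bhlhe40 was at 0.44 (limma adjusted p = 0.0993) and the eye and forebrain gene otx2a at 0.61 (limma adjusted p = 0.237), both with all mutant arrays above all wild-type arrays. The related gene otx2b, chosen after its values were seen, lay the other way round, at -0.19 (limma adjusted p = 0.500). The visual cycle genes rpe65a (47.3 ± 7.33 for mutant arrays and 52.0 ± 7.48 for wild-type arrays) and rlbp1a (63.5 ± 23.0 and 72.7 ± 15.5 for the mutant and the wild type; SD, n = 3 per genotype) overlapped. The retinoid gene rgrb overlapped as well, at 747 ± 92.8 for mutant arrays and 766 ± 110 for wild-type arrays (SD, n = 3 per genotype). So did stra6, higher in mean in the mutant, at 1090 ± 179 against 953 ± 189 in the wild type (SD, n = 3 per genotype). The dimmest gene of the list had a mean signal of 47.1 over all arrays. The median log2 change of the 8 probe sets was -0.09, with 5 below 0 and 3 above. The summed signal of the 8 genes ran from 4802 to 5173 over mutant arrays and from 4134 to 4663 over wild-type arrays, without overlap. Of the mean sums of 4995 and 4314 for the mutant and the wild type, bhlhe40 alone made up 2390 and 1773. Most of the gap between the mean sums was thus that of bhlhe40. Of the 8 probe sets, 3 did not overlap between genotypes, 2 higher and 1 lower, where 27% of all probe sets tested did not. A shift of the list as a whole was not tested. A link of these genes to the pmelb difference was not tested.

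The gene gch2 (NCBI gene 64263) encodes a GTP cyclohydrolase, which opens pteridine synthesis and marks early xanthophores in zebrafish. Its first probe set gave 181, 118 and 213 in the mutant arrays, against 310.0, 203 and 186 in the wild-type arrays. Mutant replicate 3 was above wild type replicates 2 and 3. The log2 change was -0.45 (SE 0.29), with a 95% interval from -1.11 to 0.20. Its second probe set gave 44.4, 102 and 8.003 in the mutant arrays, against 65.8, 98.6 and 315 in the wild-type arrays. The spread within each genotype was so wide that its log2 change of -1.94 had an SE of 0.89. Without mutant replicate 3, which lay under the filter level of 41.1, it was -0.91. Neither probe set was past the threshold, and the 2 shared no order of arrays: the first was lowest in mutant replicate 2 and the second in mutant replicate 3.

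In the wild type, replicate 2 gave the lowest signal of its group for 5 of the 7 probe sets (crestin, sox10, mitfa, pmelb and dct), although its median over the array (133) lay within the range of all arrays (132 to 148). In the mutant, the lowest signals were spread over the arrays (3, 2 and 2 for replicates 1 to 3). The same counts over all probe sets tested are not given here, so nothing is read from these member counts. The 3' to 5' signal ratios of control probe sets, a possible sign of RNA quality, differed between genotypes. The RNA was labelled with whole-transcript kits, and what sets these ratios was not tested. The ratio of 3' to 5' signal at the gapdhs control probe sets ran from 3.28 to 7.65 over mutant arrays and from 9.16 to 14.5 over wild-type arrays, and at the actc1b control probe sets from 26.2 to 38.8 over mutant arrays and from 55.4 to 92.4 over wild-type arrays (exact two-sided permutation p = 0.1 for each, the smallest that 3 against 3 arrays allow). With these ratios as covariates, in that order, crestin was at -1.74 and -1.76 and pmelb at 1.08 and 1.30. Mitfa was at -1.49 and -1.10, and sox10 at -0.91 and -0.43. The value of dct was -0.14 and -0.23. That of gch2 was -1.10 and -1.15 for the first probe set and 1.01 and -0.04 for the second. None of the 7 was then past the threshold in limma, with 5 and 2 at an unadjusted p under 0.05, against 10.2% and 11.7% of all probe sets tested. Nothing is read from these counts either, since neither ratio overlapped between genotypes. Genotype and what these ratios reflect, RNA quality or other, thus cannot be told apart in these fits.

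**Figure D2:**
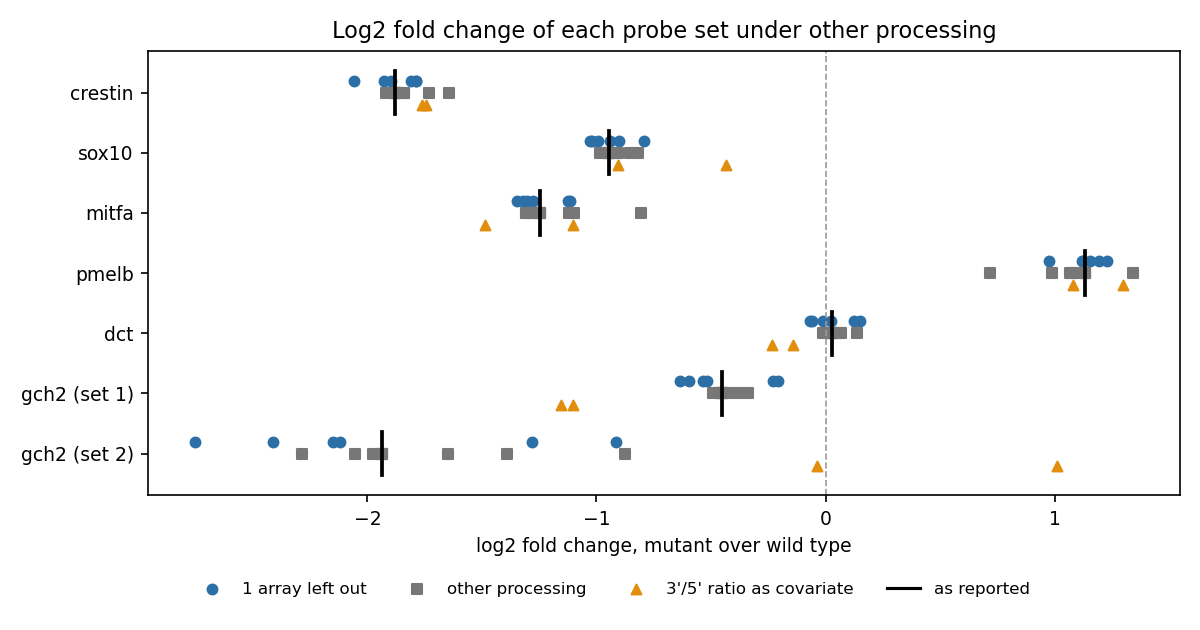
Log2 fold change, mutant over wild type, of each probe set as reported (black line), with 1 array left out (blue circles), under other processing (grey squares) and with a 3' to 5' ratio as a covariate (orange triangles). Crestin, sox10 and mitfa stay below 0 and pmelb above 0 under every setting drawn, dct lies on both sides of 0, and the second gch2 probe set ranges from -2.75 to 1.01.

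Other genes of the crest, its pigment lineages, the eye and the ear were read from 8 lists that leave out the members. Across the lists, 128 of 182 probe sets passed the filter, for 113 genes, and 2 were past the threshold in limma, both higher in the mutant, where 3.39% of all probe sets tested were. Their median log2 change was 0.05, against 0.02 over all probe sets tested.

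No early crest specifier that was tested passed in RNA of whole embryos at 25 hpf, where the signal need not come from crest alone. The array held 39 specifier probe sets for 25 genes, and 20 of them, for 19 genes, passed the filter on low signal. Of these 20, none was past the threshold in limma, and 0 had an unadjusted p under 0.05, against 20.6% of all probe sets tested. Their median log2 change was 0.00, with 10 below 0 and 10 above. The pioneer factor gene foxd3 gave 375, 872 and 679 in the mutant arrays, against 811, 861 and 744 in the wild-type arrays. Mutant replicate 1 was the lowest, mutant replicate 3 also lay below every wild-type array, and mutant replicate 2 lay above them all. Its log2 change was -0.41 (SE 0.28, limma adjusted p = 0.444). The crest and epidermal factor gene tfap2a was lower in every mutant array, at 2211 ± 114 for mutant arrays and 2442 ± 93.2 for wild-type arrays (SD, n = 3 per genotype), a log2 change of -0.14 (limma adjusted p = 0.524). The specifiers with the smallest p were snai2, a repressor of epithelial genes, at 0.33 (limma adjusted p = 0.316) and the arch crest gene dlx2a at -0.45 (limma adjusted p = 0.334).

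Of 36 probe sets for crest migration and its guidance, none passed, with 7 (19.4%) at an unadjusted p under 0.05 in limma, 5 higher and 2 lower, against 20.6% of all probe sets tested. Their median log2 change was 0.12, with 25 above 0. The chemokine receptor gene cxcr4a gave 229, 170.5 and 326 in the mutant arrays, against 476, 434 and 370 in the wild-type arrays. It did not overlap between genotypes, with a log2 change of -0.86 (SE 0.25, limma adjusted p = 0.0966). The fibronectin receptor subunit gene itga5 was at -0.97 (SE 0.30, limma adjusted p = 0.112), also without overlap. The 5 higher ones, named after their values were seen, were rhoab at 1.07, fn1b at 0.81, 1 of the 4 cdc42 probe sets at 0.73, pdgfaa at 0.42 and erbb2 at 0.33 (limma adjusted p from 0.139 to 0.240).

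The melanophore and melanosome list held 14 tested probe sets, none past the threshold, with 2 (14.3%) at an unadjusted p under 0.05 in limma, against 20.6% of all probe sets tested, and a median log2 change of 0.03. Those 2 were the proton pump subunit gene atp6v0d1 at -0.49 (SE 0.13, limma adjusted p = 0.0832) and rab32a, a small GTPase gene of melanosome transport, at -0.49 (SE 0.17, limma adjusted p = 0.151). Both were lower in every mutant array. The tyrosinase gene tyr, the first enzyme of melanin synthesis, was dim, at 40.7 ± 10.4 for mutant arrays and 53.4 ± 16.2 for wild-type arrays (SD, n = 3 per genotype), and overlapped (limma adjusted p = 0.607). The melanoblast receptor gene kita lay below the filter, at 13.3 ± 5.94 for mutant arrays and 19.8 ± 15.3 for wild-type arrays (SD, n = 3 per genotype).

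In the xanthophore and pteridine list, 1 of 9 probe sets (11.1%) rose and 8 did not pass, with a median log2 change of 0.27. Over all probe sets tested, 3.39% passed (1.54% higher). An unadjusted p under 0.05 in limma was held by 2 of the 9 (22.2%), both higher, against 20.6% of all probe sets tested. The gene that rose was mycbp2, an ubiquitin ligase gene whose zebrafish mutant, esrom, has reduced yellow pigment. It is also known for its role in axon guidance. It gave 797, 719 and 788 in the mutant arrays, against 338, 522 and 407 in the wild-type arrays. The log2 change was 0.88 (SE 0.19, limma adjusted p = 0.0376). Of the single arrays left out, wild type replicate 2 was the only one that kept the call (limma adjusted p = 0.0477), while the others ended it (up to 0.128). Either 3' to 5' ratio as a covariate ended it too (0.350 and 0.449), at log2 changes of 0.92 and 0.83. The call also ended with the replicate number as a block (limma adjusted p = 0.0739) and without the variance trend (0.0700), both at the same log2 change of 0.88.

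In the iridophore and purine synthesis list, 1 of 13 probe sets (7.69%) rose and 12 did not pass, with a median of -0.08. Over all probe sets tested, 3.39% passed (1.54% higher). The gene that rose was atic, which encodes the enzyme of the last steps to inosine monophosphate, a pathway used by all dividing cells as well as by pigment cells. It gave 6627, 7752 and 7043 in the mutant arrays, against 2897, 2919 and 3250 in the wild-type arrays. The lowest mutant array was thus above the highest wild-type array by a wide margin. The log2 change was 1.24 (SE 0.12, limma adjusted p = 0.000909), a level 2.36-fold higher. It passed under each of the 19 alternatives run, both 3' to 5' ratio covariates included (limma adjusted p = 0.0354 and 0.0348). With atic, 4 of the 13 (30.8%) had an unadjusted p under 0.05 in limma, against 20.6% of all probe sets tested. Of the 4, 3 were higher and 1 lower. The other 3 were named after their values were seen. They were prps1b at 0.62 (limma adjusted p = 0.0829), 1 of the 3 mpv17 probe sets at 0.76 (0.204) and gart at -0.65 (0.131). Only gart overlapped. The related gene prps1a, chosen after its values were seen, lay the other way round without overlap, at -0.25 (limma adjusted p = 0.283). It was brighter, with means of 4501 and 5326 for the mutant and the wild type, against 454 and 296 for prps1b.

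Of 17 probe sets for crest glia and autonomic neurons, none passed, and their median log2 change was 0.06. An unadjusted p under 0.05 in limma was held by 1 (5.88%), against 20.6% of all probe sets tested. The glial and radial cell gene fabp7a was at 0.81 (limma adjusted p = 0.130) and the neuronal factor gene neurod1 at -0.61 (limma adjusted p = 0.279), and both overlapped between genotypes. In the otic list the smallest p belonged to pax2a at 0.32 and dlx3b at 0.49 (limma adjusted p = 0.380 and 0.382).

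**Figure D3:**
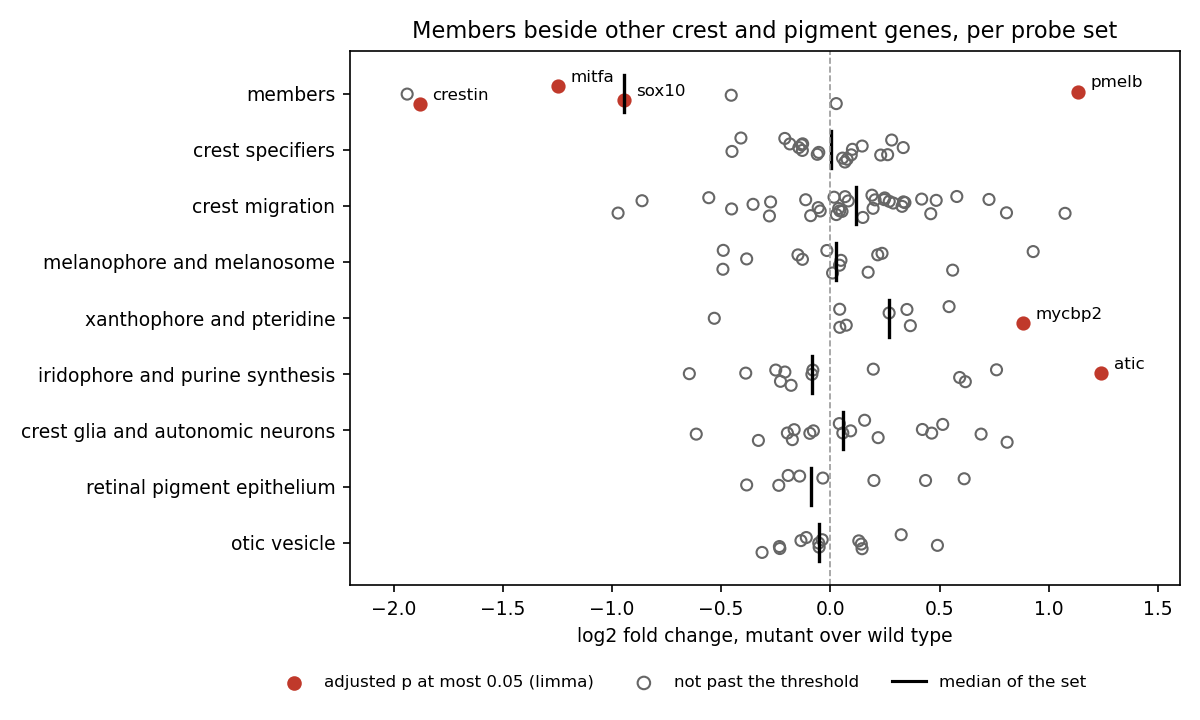
Log2 fold change, mutant over wild type, of each tested probe set of the members (top) and of 8 lists of other crest, pigment, eye and ear genes. Filled red points are past an adjusted p of 0.05 in limma and are named, open points are not, and black lines are medians. Outside the members, mycbp2 and atic are the only filled points, both above 0.

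The named probe sets whose signals ran most like those of crestin over the 6 arrays were those of the tubulin gene tuba8l2 (Pearson r = 0.997), cnppd1 (0.996), ccdc25 (0.994), the secretory granule gene scg3 (0.992) and krcp (0.992), out of 8118 others. The 6 arrays share the split by genotype, so a probe set whose groups are well separated, with little spread within each, has an r of large size for that reason. These 5 were at log2 changes of -0.54 to -1.26, each smaller in size than that of crestin. Among the members, r to crestin was 0.956 for mitfa and 0.949 for sox10, -0.893 for pmelb, 0.02 for dct, and 0.557 and 0.655 for the first and second gch2 probe sets. By r, mitfa ranked 102 and sox10 132 among the other probe sets tested, so many others ran closer to crestin.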

How the data were processed

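Whole-embryo RNA was depleted of ribosomal RNA, amplified and biotin-labelled with whole-transcript kits, per the labels' protocols. The deposited values are intensities of 15617 probe sets, and per the submitters' processing notes MAS5 made them. The sources used here give no detection calls and no scaling target. With 2% trimmed from each end, every array averaged 500.13 to 500.14, and array medians between 132 and 148. Genes were named from the platform annotation, which gave 10802 probe sets 1 symbol, 135 several and 4680 none.

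The deposited intensities were taken to log2 with no further scaling. The 115 control probe sets were removed, the lowest 30% by mean log2 signal (below 41.1) were left out, and 10851 were fitted with limma 3.58.1 in R 4.3.3 (eBayes with trend, genotype as the only term), with Benjamini-Hochberg adjustment over all of them at 0.05. The median SE of a log2 fold change was 0.222, limited by the number of arrays. The fit was tested on simulated data with each probe set's own spread. A first simulation, which shuffled the spreads across probe sets, fell just short of the recovery set for it and was replaced by this one. Probe sets were not averaged within a gene. List sums take the brightest tested probe set of each gene.

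The 8 members and the gene lists were chosen with earlier results of these data known. Text names each member, the genes past the threshold in each list or the 2 with the smallest p, the 5 most like crestin, and foxd3, tfap2a, mitfb, tyr and kita. Outside these rules it names sparc, rpe65a, rlbp1a, rgrb and stra6, and the genes marked as chosen or named after their values were seen. Nothing in the labels says that replicates are separate clutches, and p-values may then reflect technical spread alone. Alternatives were other normalizations, offsets, filters, variance models, array weights, a replicate block, each array left out and, chosen after seeing the data, 3' to 5' ratios as covariates. Alternatives other than those of the filter kept the same tested probe sets. Figures were drawn with matplotlib 3.10.9.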

Additional observations from a re-analysis of the deposited data

How the results depend on the processing

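The members' log2 fold changes kept their sign under all alternatives for crestin, sox10, mitfa, pmelb and the first gch2 probe set. The value of dct ran from -0.23 to 0.15 and that of the second gch2 probe set from -2.75 to 1.01. The number of member probe sets past the threshold was 4, and 1 to 4 with single arrays left out. It was 3 with no filter, where pmelb did not pass, 2 with a 50% filter, which left 4 of the probe sets tested, 2 with the replicate block (crestin and sox10), and 0 with either 3' to 5' ratio as a covariate. Over all probe sets 368 passed, 114 to 461 with single arrays left out (114 without wild type replicate 2; 210, 200 and 170 without mutant replicates 1, 2 and 3), 1416 with array weights, and 44 and 26 with the gapdhs and then the actc1b ratio as a covariate. Of the listed genes 2 passed, 1 to 2 with single arrays left out, 14 with array weights, and 1 without the variance trend, with the replicate block, or with the gapdhs or actc1b ratio as a covariate. With no filter, which tested 182 probe sets of these lists, 3 passed, all higher in the mutant. The cause of these shifts was not tested. Arrays of the same replicate number were not seen to be more alike than others. Deviations from the group means correlated at 0.06, 0.05 and -0.07 for replicates 1 to 3, and from -0.12 to 0.07 for arrays of unlike number. With 3 arrays per genotype, a weak pairing could go unseen by this measure. The block gave 260 calls over all probe sets. Without detection calls, signals below the filter have no known background limit.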
